A study of Danio rerio with 26 samples.

Results

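Immediate early genes were followed across the brains of 26 male zebrafish that had all received rotenone, an inhibitor of mitochondrial complex I. Bulk RNA sequencing of each brain gave read counts per gene, and the question was how these genes differed between groups and how they varied together from fish to fish. The genes were taken from a list of 34 zebrafish symbols, matched to the symbols of the count tables with case ignored and with a last letter a or b optional. This gave 34 of the 32105 rows, which cover 32 of the 34 symbols, all except fosab and arca. The row named FOS was reached through fosb without its last letter. It is taken here as fosab, the zebrafish c-fos, because a RefSeq gene table lists fos as a synonym of fosab. For JUNB, NPAS4 and GADD45B the tables hold 2 rows each under the mammalian name, without saying which zebrafish copy each is, so the Ensembl identifier is given with them. One of the 34 rows, egr2a, had 114 reads in all libraries together and at most 13 in a library, so it was left out of the tests, and 33 members were tested.

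The oldest group held 7 fish of 3 years at 37.5 nM rotenone, of the strain AB JxTu Tg(flk:mCherry). A group of 9 fish of 1 year at 37.5 nM and a group of 10 fish of 1 year at 3.75 nM were both of the strain AB JxTu. Strain label and age therefore cannot be told apart, and all groups carried rotenone, with no untreated group. The counts at 3.75 nM were deposited separately from those at 37.5 nM, so dose and table cannot be told apart either. Every title carries its own fish number and the labels say nothing of pooling, so p-values measure the spread between these samples.

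Immediate early genes are transcribed within minutes of a stimulus such as neuronal firing, a growth factor or stress, from transcription factors that are already present in the cell. Many of them encode transcription factors themselves, namely the Fos and Jun proteins that pair to form AP-1, the Egr zinc fingers, NPAS4 and the NR4A nuclear receptors. Others encode proteins that limit the response, such as the DUSP phosphatases that switch off MAP kinases. In brain tissue their transcripts are widely used as a record of recent neuronal activity. In bulk tissue, fewer cells of a type and less RNA per cell cannot be told apart.

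The libraries held between 20609926 and 36028646 counts assigned to genes, and levels are given as CPM, the count per 1000000 counts with TMM-adjusted library sizes. In the smallest library 1 CPM was about 20.6 reads before that adjustment. Neuron, glia and other brain lists were measured in all libraries. In 10 libraries a list of eye and pineal, muscle, pituitary or skin genes exceeded its median over libraries by more than 1.5 log2 units, with muscle scores of up to 5.07 and eye and pineal scores of up to 3.75. They were 3 year replicates 5 and 7, 1 year 37.5 nM replicates 1, 4, 5 and 7, and 1 year 3.75 nM replicates 1, 3, 4 and 5. The fish numbers in the titles fall into 2 runs, with 12 libraries in the first and 14 in the second, and each group has fish in both. What separates the runs is not stated in the labels. The members' spread, pair correlations and slope calls are given again without these libraries and with the runs taken into account. Genes of the other lists are mostly given over all libraries only.

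Immediate early genes varied more between fish of the same group than most genes did. The biological coefficient of variation, edgeR's estimate of the spread between libraries of a group beyond counting noise, had a median of 25.2% over the 33 members and of 18.1% over all 20452 genes over the abundance filter. Of the 33 members, 27 lay above the median of all genes. Because the spread falls with expression level, each gene was also set against the trend at its level: 20 members (60.6%) lay above it, against 20.9% of all genes. KLF9, a Krüppel-like factor induced by glucocorticoids in mammals, varied most, at 65.7%. DUSP2, a nuclear phosphatase of MAP kinases, followed at 55.8%, then FOSB at 50.02%, the NPAS4 row ENSDARG00000055752 at 45.3%, NR4A1 at 44.1%, egr4 at 43.9% and FOS at 40.6%. KLF6 was the steadiest member, at 8.81%, with IER5 at 11.8%, IER5L at 13.4%, JUND at 13.6% and JUN at 14.5%. The highest library exceeded the lowest 4.16-fold for FOS and 21.6-fold for KLF9. The counts behind these ratios ran from 158 to 1027 for FOS and from 191 to 4104 for KLF9. Again 20 members lay above the trend with the run as a covariate and without the 10 libraries with high tissue scores, against 20.4% and 23.8% of all genes. With the run as a covariate KLF9 had 54.5%, DUSP2 44.8% and FOSB 42.5%, and without those libraries KLF9 had 72.3%. Both settings were added after the data were seen.

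**Figure D1:**
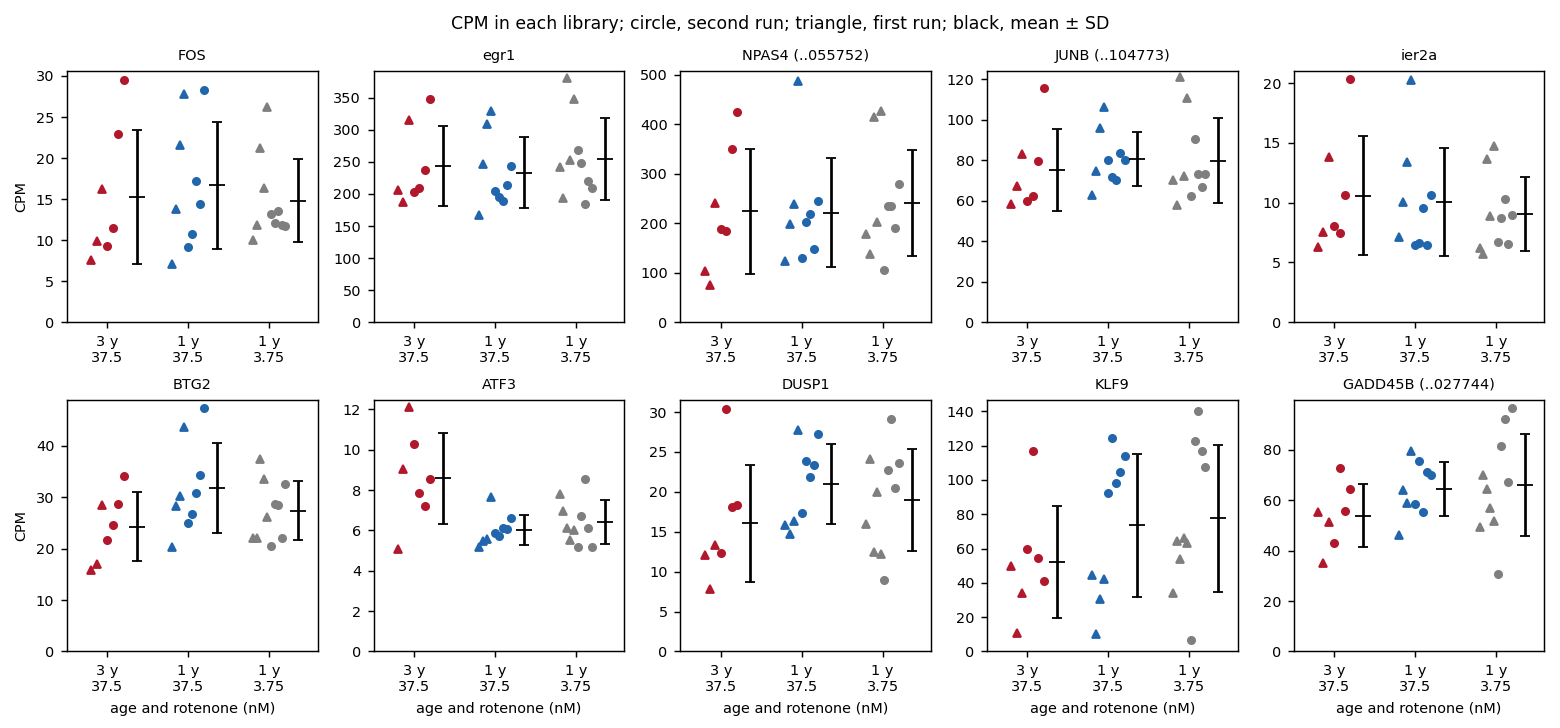
CPM of 10 immediate early genes in each of the 26 brains, on linear axes from 0, by group, with circles for the second run of fish numbers, triangles for the first and black bars for the mean ± SD. The groups overlap for every gene shown, and KLF9 spans the widest range relative to its lowest fish, 6.48 to 140.02 CPM.

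Among the AP-1 genes, FOS encodes the partner of Jun proteins that is most used as an activity marker. FOS had a lowest, median and highest level of 7.62, 11.5 and 29.5 CPM in 3 year fish, against 7.09, 14.4 and 28.2 CPM in 1 year fish at 37.5 nM. In 1 year fish at 3.75 nM the same levels were 10.1, 12.7 and 26.2 CPM. The 3 groups covered nearly the same range, each with a few fish well above the rest. The log2 fold change was -0.12 ± 0.33 (SE) for 3 years over 1 year and 0.17 ± 0.25 for 37.5 nM over 3.75 nM, with edgeR adjusted p of 0.848 and 0.855.

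The JUNB row ENSDARG00000104773, one of a pair of genes for a Jun protein that dimerises with Fos, had 58.5, 67.2 and 115.6 CPM (lowest, median, highest) in 3 year fish, against 63.1, 80.0 and 106.3 CPM in 1 year fish at 37.5 nM. The 3.75 nM fish had 57.8, 72.5 and 120.9 CPM. The other JUNB row, ENSDARG00000074378, ranged from 10.1 to 21.5 CPM in 3 year fish, from 12.1 to 20.7 CPM in 1 year fish at 37.5 nM and from 9.43 to 23.4 CPM at 3.75 nM. Both rows overlapped fully between groups. FOSB, a Fos protein whose truncated form accumulates with repeated stimulation in rodents, had a median of 6.07 CPM in 3 year fish, 6.52 CPM in 1 year fish at 37.5 nM and 8.74 CPM at 3.75 nM. Its log2 fold change for dose, -0.54 ± 0.34 (SE), was the most negative of any member, with an edgeR adjusted p of 0.628. fosaa, the second c-fos copy, had the most negative value for age, -0.58 ± 0.31 (SE, edgeR adjusted p = 0.241). JUN, JUND, FOSL1 and FOSL2, the other AP-1 subunits, had log2 fold changes between -0.20 and 0.14 for age and between -0.14 and -0.02 for dose, and no one of them passed.

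ATF3, a stress-induced factor that binds AP-1 and CRE sites, was the 1 member called in the age comparison, higher in 3 year fish. Of all genes tested, 4.92% were called higher there. Strain label differs along with age, so the difference cannot be credited to age alone. ATF3 had 5.07, 8.57 and 12.1 CPM (lowest, median, highest) in 3 year fish, against 5.16, 5.86 and 7.68 CPM in 1 year fish at 37.5 nM. The 3.75 nM fish had 5.16, 6.13 and 8.56 CPM. Of the 7 fish of 3 years, 5 lay above all 1 year fish at 37.5 nM, but the lowest ATF3 level of the series was also in a 3 year fish, so the groups overlapped. The means were 8.59 ± 2.25 CPM (SD, n = 7) in 3 year fish and 6.03 ± 0.747 CPM (SD, n = 9) in 1 year fish at 37.5 nM. The log2 fold change was 0.51 ± 0.14 (SE), with an edgeR adjusted p of 0.038. Of 16 fits that left out a library 11 lost the call, with an edgeR adjusted p of up to 0.086. The call was kept without 3 year replicates 1, 5 and 6 and without 1 year 37.5 nM replicates 4 and 9. Within the first run the log2 fold change was 0.55 (adjusted p = 0.484), within the second 0.46 (adjusted p = 0.0531), and without the 10 libraries with high tissue scores 0.57 (adjusted p = 0.147). In the same comparison 14 of 23 microglia genes rose, with a list score of -0.07 to 0.877 log2 units in 3 year fish, against -0.383 to 0.260 in 1 year fish at 37.5 nM. The part of microglia in the ATF3 result was not tested.

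The Egr genes encode zinc finger factors that bind GC-rich sites. egr1, the most studied of them, had 187, 209.8 and 348 CPM (lowest, median, highest) in 3 year fish, against 167, 215 and 329 CPM in 1 year fish at 37.5 nM. At 3.75 nM it had 185, 245 and 382 CPM, and the groups overlapped throughout. egr4, found mainly in neurons in mammals, had a median of 42.7 CPM in 3 year fish, 43.3 CPM in 1 year fish at 37.5 nM and 45.3 CPM at 3.75 nM, with highest fish at 109, 103 and 115 CPM in the same order. For EGR2 and EGR3 the log2 fold changes were 0.30 and -0.01 for age, and -0.02 and -0.11 for dose. The 4 tested Egr genes had edgeR adjusted p of at least 0.416 for age and 0.806 for dose. The egr2a row, the other copy of EGR2, was at most 0.434 CPM in any library.

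NPAS4 is a transcription factor that neurons switch on in response to calcium entry. Its row ENSDARG00000055752 had 75.6, 188 and 424 CPM (lowest, median, highest) in 3 year fish, against 124, 203 and 487 CPM in 1 year fish at 37.5 nM. At 3.75 nM it had 106, 219 and 426 CPM, and all groups held fish near both ends. The second NPAS4 row, ENSDARG00000087753, had medians of 17.3 CPM in 3 year fish, 20.92 CPM in 1 year fish at 37.5 nM and 20.99 CPM at 3.75 nM. NR4A1, an orphan nuclear receptor, had 4.42, 10.7 and 20.4 CPM in 3 year fish, against 5.03, 10.1 and 22.7 CPM in 1 year fish at 37.5 nM. At 3.75 nM NR4A1 had 6.72, 10.2 and 21.4 CPM, again over the same range as the other groups. NR4A3, from the same receptor family, had log2 fold changes of -0.24 ± 0.21 (SE) for age and -0.03 ± 0.21 for dose.

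KLF9 had 10.5, 49.7 and 117 CPM (lowest, median, highest) in 3 year fish, against 9.95, 92.3 and 124 CPM in 1 year fish at 37.5 nM. In fish at 3.75 nM the same levels of KLF9 were 6.48, 65.4 and 140.02 CPM. In each group 1 fish lay far below the others, namely 3 year replicate 2, 1 year 37.5 nM replicate 2 and 1 year 3.75 nM replicate 6. The log2 fold change was -0.50 ± 0.48 (SE) for age and -0.08 ± 0.46 for dose, with edgeR adjusted p of 0.548 and 0.972. The other Krüppel-like factors, klf2a, klf2b, KLF4 and KLF6, had log2 fold changes between -0.18 and 0.06 for age and between -0.28 and 0.07 for dose.

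Among the genes for feedback and other early proteins, BTG2, an antiproliferative factor, had 15.8, 24.5 and 34.0 CPM (lowest, median, highest) in 3 year fish, against 20.3, 30.2 and 47.4 CPM in 1 year fish at 37.5 nM. In the 3.75 nM fish BTG2 had 20.53, 27.3 and 37.4 CPM. The 3 year fish included the lowest levels and the groups overlapped, with a log2 fold change for age of -0.39 ± 0.18 (SE) that did not pass (edgeR adjusted p = 0.192). DUSP1, another nuclear MAP kinase phosphatase, had 7.83, 13.3 and 30.4 CPM in 3 year fish, against 14.7, 21.8 and 27.8 CPM in 1 year fish at 37.5 nM. At 3.75 nM DUSP1 had 8.89, 20.2 and 29.1 CPM. Its log2 fold change for age was -0.39 ± 0.22 (SE, edgeR adjusted p = 0.289), with both the lowest and the highest fish in the 3 year group.

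ier2a, a small early nuclear protein gene, had 6.27, 8.08 and 20.3 CPM (lowest, median, highest) in 3 year fish, against 6.42, 9.56 and 20.3 CPM in 1 year fish at 37.5 nM. At 3.75 nM it had 5.71, 8.79 and 14.7 CPM. The groups overlapped, and the edgeR adjusted p was 0.903 for age and 0.860 for dose. The GADD45B row ENSDARG00000027744, a stress sensor linked in rodents to activity-dependent DNA demethylation, had 35.1, 55.2 and 72.6 CPM in 3 year fish, against 46.0, 64.0 and 79.6 CPM in 1 year fish at 37.5 nM. In fish at 3.75 nM this row had 30.6, 66.0 and 96.5 CPM. The other GADD45B row, ENSDARG00000013576, stayed between 3.61 and 8.60 CPM in all 26 libraries. IER5L had a log2 fold change for age of -0.25 ± 0.10 (SE) with an unadjusted edgeR p of 0.020, which did not pass after adjustment (adjusted p = 0.118).

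In the age comparison as a whole, 1 of 33 members rose (ATF3) and none fell at an edgeR adjusted p under 0.05, where 7.79% of the 19887 genes tested were called, 4.92% higher and 2.87% lower. In DESeq2, ATF3 was also called (adjusted p = 0.0112). At an unadjusted p under 0.05 edgeR gave 3 members, ATF3, BTG2 and IER5L. The median log2 fold change of the members was -0.07, with 12 positive and 21 negative, beside 0.01 over all genes. In the dose comparison 0 of 33 members passed in edgeR and 0 in DESeq2, and 0 had an unadjusted edgeR p under 0.05, where 0.0508% of the 19691 genes tested (10 genes) were called, 0.0355% higher and 0.0152% lower. Members ranged from -0.54 for FOSB to 0.22 for BTG2, with a median of -0.04 beside -0.01 over all genes. These comparisons share the 9 fish of 1 year at 37.5 nM. Of 23 further activity-induced genes, the list called late activity here, 0 were higher and 4 lower in 3 year fish. The order in which these genes are induced was not measured. Among the 4 were scg2b at -0.43 ± 0.09 (SE, edgeR adjusted p = 0.00691) and BDNF at -0.41 ± 0.09 (adjusted p = 0.011). For dose 0 of 23 were called. Of 31 upstream kinases and transcription factors, ELK4 (0.64 ± 0.15, edgeR adjusted p = 0.0197) and RPS6KA5 (1.17 ± 0.32, adjusted p = 0.0328) were higher in 3 year fish, and none was called for dose.

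Between fish of the same group, part of the member pairs moved together. Correlations were computed for all 528 pairs of the 33 members on log2 CPM with the group mean removed, with permutation of fish within groups. Pearson's r was positive in 409 pairs and negative in 119, with a median of 0.26. At a Benjamini-Hochberg adjusted permutation p under 0.05, 102 pairs (19.3%) were called by Pearson's r and 83 by Spearman's rho. Of the 102, 100 were positive. The share called among pairs of all genes was not computed. Whether 19.3% is more than for other genes was therefore not tested. The 2 negative pairs both held IER5L, with KLF4 (r = -0.60) and with the JUNB row ENSDARG00000074378 (r = -0.58), and neither was called by Spearman's rho (adjusted permutation p of 0.117 and 0.112). By Pearson's r, EGR2 and KLF6 had no called partner, whereas NR4A1 had 14. With run means removed as well, 67 pairs were called, and without the 10 libraries with high tissue scores 9 were called, with 111 at an unadjusted permutation p under 0.05.

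**Figure D2:**
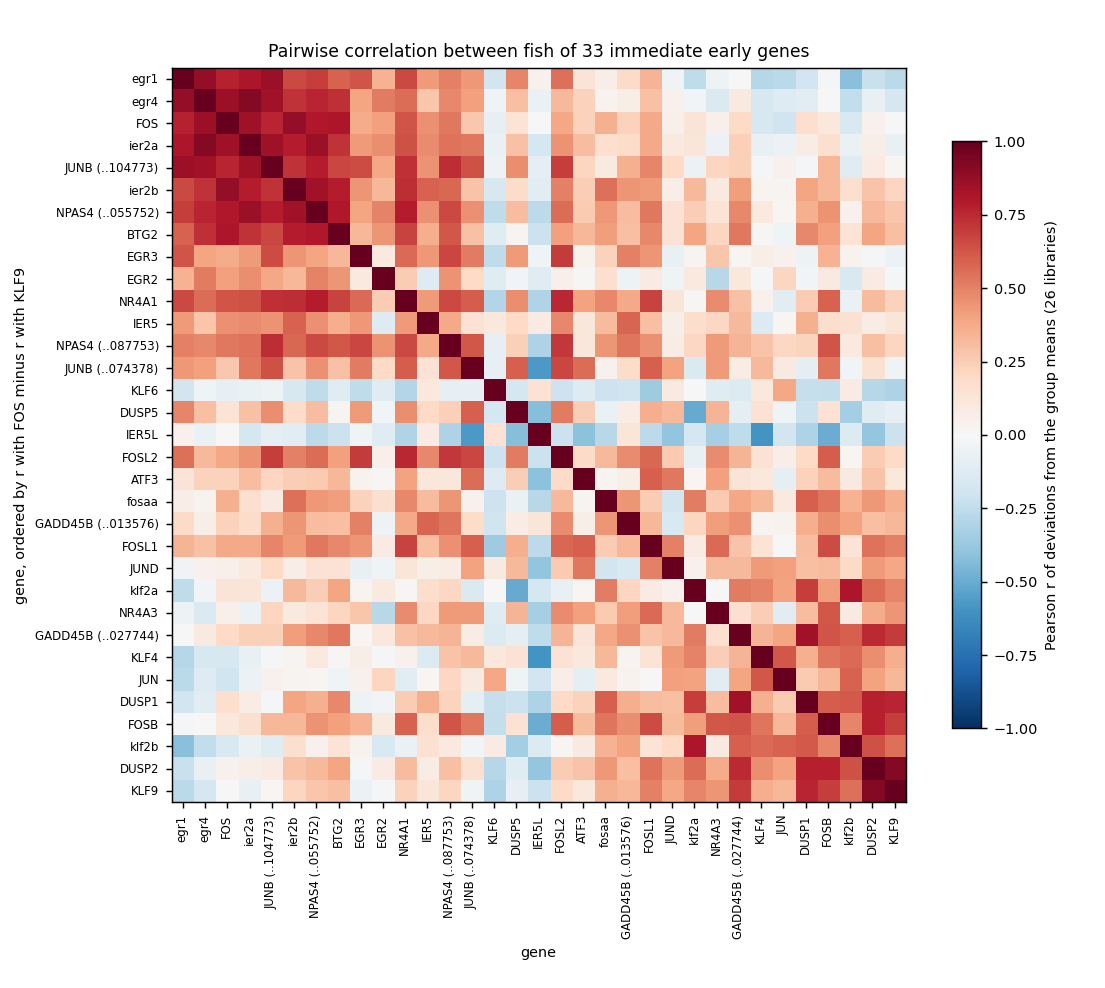
Pearson's r between immediate early genes over 26 fish with group means removed, with colour from negative to positive. Genes are ordered by r with FOS minus r with KLF9, so opposite FOS and KLF9 ends are built into the order. A block around FOS, egr1, egr4, ier2a, ier2b, BTG2, NPAS4 (ENSDARG00000055752) and JUNB (ENSDARG00000104773) and a smaller block around KLF9, DUSP2, DUSP1, FOSB and GADD45B (ENSDARG00000027744) stand out, with a median r of 0.17 between them. These are FOS, KLF9 and the members called on each, chosen from the same values. NR4A1, with 14 called partners, is in neither block. Nor are NPAS4 (ENSDARG00000087753) with 11, FOSL2 with 10, JUNB (ENSDARG00000074378) with 9, and FOSL1 and klf2b with 7 each. FOSB has 11 called partners, against 5 for KLF9, so the blocks do not divide all members.

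FOS moved with ier2b, egr4, ier2a, BTG2, egr1, and with 1 row each of NPAS4 and JUNB. FOS and ier2b had r = 0.882 and rho = 0.802, each with a permutation p of 1e-05, the smallest that 100000 resamples can give, and an adjusted p of 0.000311 for r and 0.000754 for rho. The r was 0.847 without the 2 fish farthest from the FOS median, 0.951 in fish of the first run and 0.850 in the second. The closest pair of the block was egr4 with ier2a, at r = 0.914 and rho = 0.880 with the same permutation and adjusted p, 0.894 without the 2 farthest fish, 0.982 for the first run and 0.809 for the second. FOS with egr4 had r = 0.857 and FOS with the NPAS4 row ENSDARG00000055752 had r = 0.798. For these 8 genes, a group chosen after their values were seen, r over the 28 pairs ran from 0.589 to 0.914 with a median of 0.793. All 28 pairs stayed positive in each of the 3 groups, with medians of 0.874 in 3 year fish, 0.833 in 1 year fish at 37.5 nM and 0.747 at 3.75 nM. Without the 10 libraries with high tissue scores the 28 values ran from 0.277 to 0.820, with a lower median of 0.629.

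The fit across all genes put these partners on a common scale. Each gene was fitted on the log2 CPM of FOS with the group as a factor, so that a slope of 1 means a doubling of the gene for a doubling of FOS between fish of a group. At an edgeR adjusted p under 0.05, 0.044% of 20451 genes (9 genes) were called, all with a positive slope, and 7 of them were among the 32 members tested besides FOS. The slopes were 0.93 ± 0.11 (SE) for egr4, 0.90 ± 0.13 for the NPAS4 row ENSDARG00000055752 and 0.76 ± 0.09 for ier2a. They were lower for ier2b at 0.54 ± 0.06, BTG2 at 0.48 ± 0.07, egr1 at 0.44 ± 0.07 and the JUNB row ENSDARG00000104773 at 0.40 ± 0.07. The edgeR adjusted p ran from 5.69e-05 for egr4 and ier2b to 0.00824 for that JUNB row. Because FOS is itself counted from 158 reads or more, its counting error is carried by every slope. The median slope was 0.13 over the 32 members and -0.001 over all genes, and 25 members were not called.

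**Figure D3:**
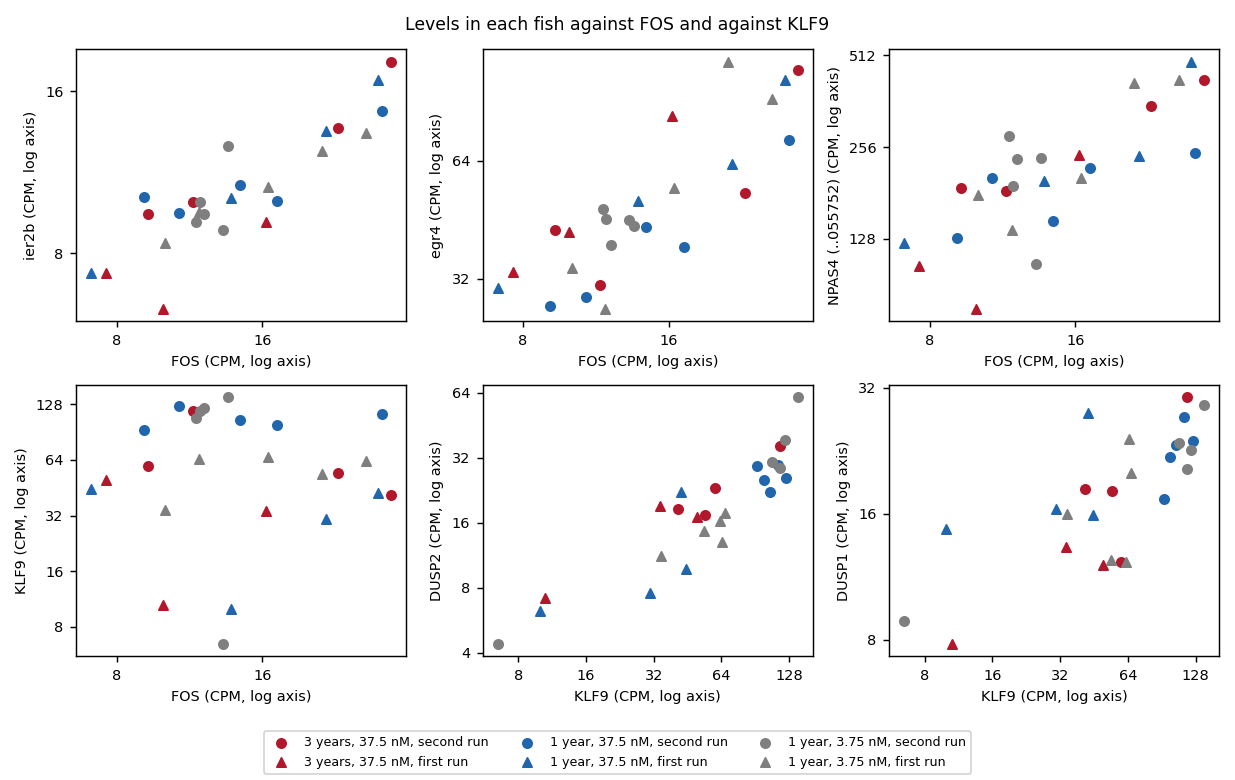
Levels of ier2b, egr4, NPAS4 (ENSDARG00000055752) and KLF9 against FOS, and of DUSP2 and DUSP1 against KLF9, in CPM on log axes, with 1 point per fish, colours for groups, circles for the second run and triangles for the first. The fish highest in FOS, 3 year replicate 7 at 29.5 CPM, is among the 5 highest for ier2b, egr4 and NPAS4, while KLF9 shows no trend with FOS (r = -0.005).

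The same 7 members were called with DESeq2, with limma voom, with other size factors or filters, and with the run as a covariate. Leaving out each library in turn kept 6 or 7 of them, with the JUNB row ENSDARG00000104773 lost without 3 year replicate 7 (slope 0.36, edgeR adjusted p = 0.102). In subsets the 7 slopes stayed positive, several were smaller, and fewer were called. In the first run the 7 slopes ran from 0.49 to 1.08 with 1 called, and within the second from 0.28 to 0.83 with 0 called in edgeR. Without the 10 libraries with high tissue scores they ran from 0.27 to 0.73 with 0 called, and in these 3 subsets all 7 had an unadjusted edgeR p under 0.05. The 7 were chosen by their slopes over all fish, the subsets included, so signs and unadjusted p in subsets are no separate test. In an interaction test for slopes that differ between groups 0 of 32 members passed in edgeR (3 at an unadjusted p under 0.05, smallest adjusted p 0.432), where 0.044% of genes were called. Fitted in one group alone, the 7 slopes ran from 0.40 to 1.02 in 3 year fish, from 0.25 to 0.87 in 1 year fish at 37.5 nM and from 0.33 to 1.31 at 3.75 nM.

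Outside the list, gpr3 was among the called genes. gpr3, a constitutively active receptor that raises cAMP in neurons, belongs to the late activity list and had a slope of 0.38 ± 0.07 (SE, edgeR adjusted p = 0.0274), a call lost without any of 7 single libraries. Of the late activity list 1 of 23 genes passed, with PIM1 at 0.28 ± 0.07 (edgeR adjusted p = 0.482) and SIK1 at 0.28 ± 0.13 (adjusted p = 0.929) next in order. Of the 31 upstream kinases and transcription factors 0 passed in edgeR, with ELK1, MEF2A and crtc1b at slopes of -0.14, -0.20 and -0.33 and an edgeR adjusted p of at least 0.992. In the glucocorticoid, heat shock, hypoxia, clock, endothelium, microglia, blood, pericyte, neuron, glia, eye and pineal, muscle, pituitary and skin lists 0 genes passed. Over the muscle list the median slope was 1.88 over 23 genes, and over the eye and pineal list -1.11 over 21 genes, beside -0.001 over all genes. Among them were CKMT2 of muscle at 2.36 ± 0.68 (SE, edgeR adjusted p = 0.631) and GNGT2 (ENSDARG00000103543) of photoreceptors at -2.56 ± 0.62 (edgeR adjusted p = 0.340). Muscle scores were highest in 1 year 37.5 nM replicate 4 at 5.07 and 1 year 3.75 nM replicate 4 at 4.12, and the next was 1.14. High muscle scores were thus found in few fish, and the muscle score had rho = 0.06 with FOS. Whether the muscle slopes rest on these fish was not tested. The part of these tissues in the FOS slopes was not tested beyond the slopes without the 10 libraries.

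**Figure D4:**
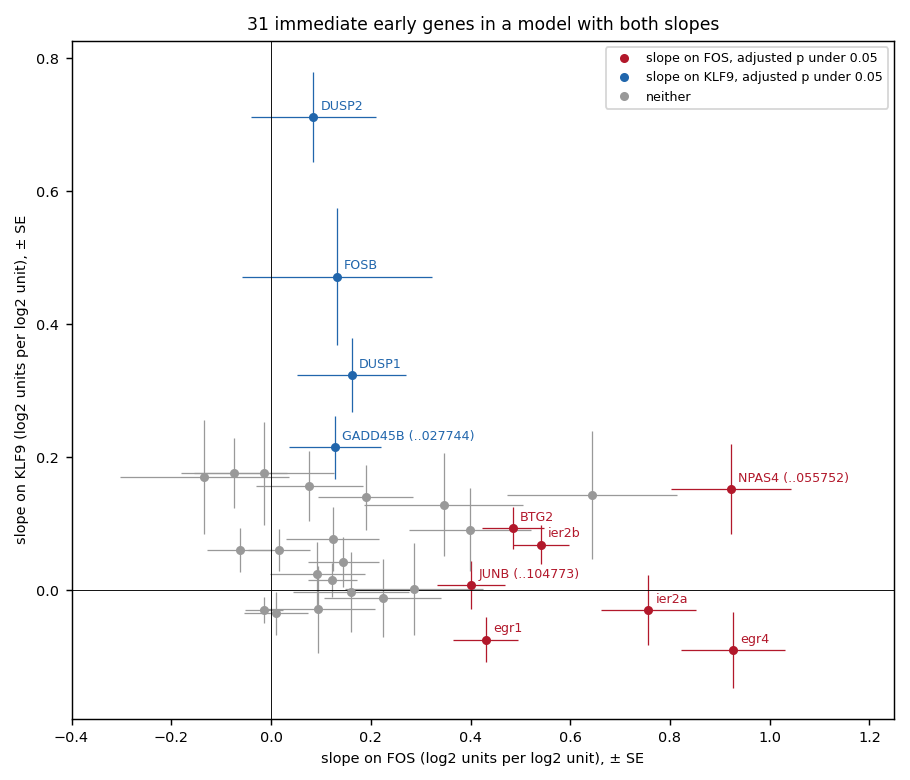
Slopes of the 31 members other than FOS and KLF9 when both are in one model with the group, in log2 units per log2 unit, with 1 point per member and bars for the SE. The 7 members called on FOS extend along the horizontal axis and the 4 called on KLF9 along the vertical axis. KLF9 was chosen because it did not follow FOS, so this layout is no test of their separation.

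Other early genes had slopes on FOS that did not pass. NR4A1 had a slope of 0.62 ± 0.17 (SE, edgeR adjusted p = 0.629) and the second NPAS4 row, ENSDARG00000087753, 0.39 ± 0.13 (adjusted p = 0.707). Both were correlated with FOS among the 528 pairs, at r = 0.630 for NR4A1 and 0.528 for that NPAS4 row (adjusted permutation p of 0.0113 and 0.0424). fosaa had a slope of 0.34 (edgeR adjusted p = 0.962), the JUNB row ENSDARG00000074378 0.16 (0.995), FOSB 0.05 (0.999) and KLF9 -0.14 (0.999). 

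The fish at the top of the FOS block came from all groups. FOS was highest in 3 year replicate 7 at 29.5 CPM, 1 year 37.5 nM replicate 9 at 28.2 CPM, 1 year 37.5 nM replicate 4 at 27.8 CPM, 1 year 3.75 nM replicate 5 at 26.2 CPM and 3 year replicate 6 at 22.9 CPM. For all 8 genes of the block, 3 year replicate 7 and 1 year 37.5 nM replicate 4 were among the 5 highest of the 26 libraries. 1 year 3.75 nM replicates 3 and 5 were among them for 6 of the 8. At the low end, 3 year replicate 1 and 1 year 37.5 nM replicate 1 were each among the 5 lowest for 6 of the 8 genes. Of the 5 libraries highest in FOS, 3 had a high tissue score, against 10 of all 26 libraries. The libraries among the 5 highest for at least 6 of the 8 genes all had a high tissue score. They were 3 year replicate 7, 1 year 37.5 nM replicate 4 and 1 year 3.75 nM replicates 3 and 5. At the low end, 1 year 37.5 nM replicate 1 had a high tissue score and 3 year replicate 1 did not. FOS was set against 18 library measures, namely depth, the mitochondrially encoded share and the 16 list scores. No correlation passed, with a smallest adjusted permutation p of 0.81 for r and 0.514 for rho, which does not show that there is none. The nearest was the eye and pineal score, at r = -0.36 (permutation p = 0.0737) and rho = -0.42 (permutation p = 0.0286), and the muscle score had r = 0.24 and rho = 0.06.

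**Figure D5:**
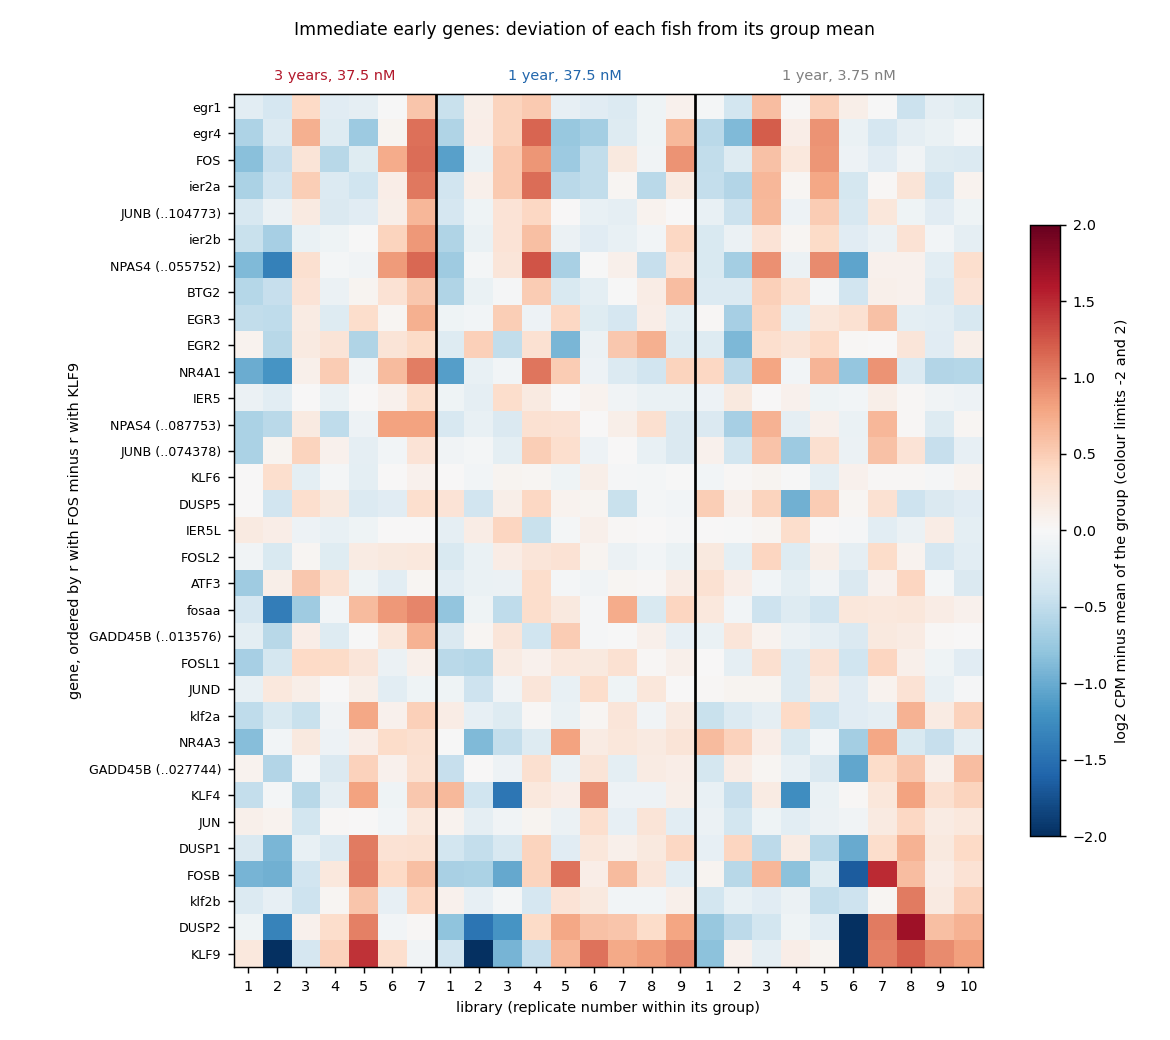
Log2 CPM minus the group mean for 33 immediate early genes (rows, ordered by r with FOS minus r with KLF9) in each of the 26 fish (columns, by group), with colours limited to -2 and 2. In 3 year replicate 7 and 1 year 37.5 nM replicate 4 the genes of the FOS block are high, and in 3 year replicate 2, 1 year 37.5 nM replicate 2 and 1 year 3.75 nM replicate 6 KLF9 is low.

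A second block lay around KLF9. KLF9 was added as a second anchor after its values were seen, because it varied most and did not follow FOS (r = -0.005, rho = -0.084, adjusted permutation p of 0.989 and 0.841). KLF9 and DUSP2 had r = 0.919 and rho = 0.894, each with a permutation p of 1e-05 and adjusted p of 0.000311 and 0.000754. The r was 0.883 without the 2 farthest fish, 0.782 for the first run and 0.959 for the second. Fitted on KLF9, 2.59% of 20451 genes (529 genes) were called by edgeR, 2.02% positive and 0.562% negative, and 4 of 32 members were called, all positive. They were DUSP2 at 0.71 ± 0.07 (SE, adjusted p = 9.3e-08), DUSP1 at 0.32 ± 0.06 (0.001), FOSB at 0.47 ± 0.10 (0.00804) and the GADD45B row ENSDARG00000027744 at 0.21 ± 0.05 (0.0123). For these 5 genes, also chosen after their values were seen, r over the 10 pairs ran from 0.606 to 0.919. In the first run it ran from 0.09 to 0.782 with a median of 0.508, and in the second from 0.631 to 0.959. Within groups it ran from 0.701 to 0.961 in 3 year fish, from 0.174 to 0.888 in 1 year fish at 37.5 nM and from 0.508 to 0.932 at 3.75 nM. Without the 10 libraries with high tissue scores it ran from 0.733 to 0.939. Of the 40 pairs between the 2 blocks 1 was called, and their median r was 0.17. In the first run their median was 0.37 with a highest r of 0.67, close to the median of 0.508 within the KLF9 block. In the second run the median between the blocks was 0.13, beside 0.84 within the KLF9 block. Because the blocks were chosen by slope on FOS and on KLF9, these values are no test of their separation.

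With FOS and KLF9 in one model the same members were called on each, 7 on FOS (0.0489% of 20450 genes) and 4 on KLF9 (2.5%, 1.97% with a positive slope). KLF9 was chosen because it did not follow FOS, so slopes close to those of the separate fits were built in. The joint model is therefore no test of the separation of the blocks. DUSP2 had 0.71 ± 0.07 (SE) on KLF9 and 0.08 ± 0.13 on FOS, with edgeR adjusted p of 1.71e-07 and 0.980. egr4 had 0.93 ± 0.10 on FOS and -0.09 ± 0.06 on KLF9, with edgeR adjusted p of 4.57e-05 and 0.555. At an unadjusted edgeR p under 0.05, 12 of 31 members had a slope on KLF9 in this model, where 2640 of 20450 genes did. Members called on FOS were among the 12, with smaller slopes on KLF9: BTG2 at 0.09, ier2b at 0.07, NPAS4 (ENSDARG00000055752) at 0.15 and egr1 at -0.07. egr4, ier2a and JUNB (ENSDARG00000104773) were not, and no member called on KLF9 had such a p on FOS. With the run as a covariate 2 members were called (DUSP2 and DUSP1), in the first run 0 in edgeR with 1 at an unadjusted p under 0.05, and without 1 year 3.75 nM replicate 6 again 2, FOSB at an edgeR adjusted p of 0.0526 and the GADD45B row ENSDARG00000027744 at 0.112. The FOSB slope was 0.10 in the first run, and that of the GADD45B row 0.04 in 1 year fish at 37.5 nM. Without the 3 fish lowest in KLF9, DUSP2 at 0.87 and DUSP1 at 0.35 were called (edgeR adjusted p of 0.000122 and 0.0318). FOSB at 0.51 and the GADD45B row at 0.23 were not (edgeR adjusted p of 0.084 and 0.0629), while klf2b at 0.34 and egr1 with a negative slope of -0.30 were (0.0282 and 0.0431). Without the 10 libraries with high tissue scores all 4 were called.

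Beyond the early genes, KLF9 moved with part of the glucocorticoid list. FKBP5, a co-chaperone of the glucocorticoid receptor that the receptor induces in mammals, had the smallest p, with a slope of 0.91 ± 0.04 (SE, edgeR adjusted p = 4.91e-13). FKBP5 was lowest in the same 3 fish as KLF9, at 107 CPM in 3 year replicate 2, 81.0 CPM in 1 year 37.5 nM replicate 2 and 61.8 CPM in 1 year 3.75 nM replicate 6. Its call held in all 40 alternatives run, with slopes from 0.74 to 1.06. Of the glucocorticoid list, 8 of 16 genes had a positive slope at an edgeR adjusted p under 0.05. Among them were tsc22d3 at 0.25 ± 0.02, DDIT4 at 0.57 ± 0.08 and CEBPD at 0.55 ± 0.10, and FKBP4 had a negative slope of -0.08 ± 0.02. The other 7 were not called, including sgk1 at 0.06 and PER1 at -0.12 (ENSDARG00000012499) and 0.07 (ENSDARG00000056885). Over all genes 2.02% were called with a positive slope and 0.562% with a negative slope. These counts and slopes are over all libraries without the run as a term, and KLF9 itself differed between the runs. With the run as a covariate 325 genes were called on KLF9, in the first run alone 12 and in the second alone 233. For genes outside the members other than FKBP5, slopes with the run taken into account are not given. Of 33 clock genes 9 were positive and 3 negative, led by nr1d2a at 0.53 ± 0.03 (edgeR adjusted p = 2.13e-12), and of 23 late activity genes 4 were positive, led by PIM3 at 0.31 ± 0.03 (adjusted p = 5.84e-08). Of 23 microglia genes 3 were negative, of 23 endothelium genes 3 were positive and 1 negative, and of 22 glia genes 1 was positive and 2 negative. Other leading genes were PFKFB4 at 0.46 ± 0.02, USP2 at 0.37 ± 0.02, pik3r3a at 0.53 ± 0.03, nfkbiab at 0.41 ± 0.03, csrnp1a at 0.67 ± 0.05, hif1al at 0.39 ± 0.03, PDK2 at 0.36 ± 0.03 and zhx3a at 0.32 ± 0.02. On the negative side the leading genes were SOX9 at -0.29 ± 0.03, PPP1R3C at -0.40 ± 0.05, OLIG2 at -0.22 ± 0.03, TNFSF10 at -0.28 ± 0.04 and FOXC1 at -0.24 ± 0.04.

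Over the same 18 library measures, KLF9 had r = 0.951 and rho = 0.925 with the mean of the glucocorticoid list, which holds no early gene of the 34 rows (permutation p of 1e-05, adjusted p of 9e-05 for both). The r was 0.904 without the 2 farthest fish, 0.933 within the first run and 0.946 within the second. The clock score had r = 0.729 (rho = 0.750, adjusted permutation p of 9e-05 and 0.0003, 0.752 without the 2 farthest fish, 0.620 and 0.560 within the first and second run). The hypoxia score had r = 0.670 (adjusted permutation p = 0.00245), with 0.319 for the first run and 0.824 for the second. Of the 20 hypoxia genes only 1, PFKFB4, was called on KLF9, and the median slope of the list was 0.03. The late activity score had r = 0.661 (adjusted permutation p = 0.00234), with 0.288 and 0.620. The heat shock score had r = -0.625 (adjusted permutation p = 0.00245), but -0.07 for the first run and -0.72 for the second. Of the 19 heat shock genes 2 were called on KLF9, both with a negative slope.

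Duplicate copies kept together to different degrees. ier2a and ier2b had r = 0.786 (rho = 0.648, adjusted permutation p = 0.000609), with values between 0.785 and 0.844 in the 3 groups. klf2a and klf2b, flow-responsive factors of endothelium, had r = 0.809 (adjusted permutation p = 0.000503), but 0.942 in 3 year fish, 0.090 in 1 year fish at 37.5 nM and 0.863 at 3.75 nM. The JUNB rows ENSDARG00000074378 and ENSDARG00000104773 had r = 0.633 and the NPAS4 rows ENSDARG00000055752 and ENSDARG00000087753 r = 0.659 (adjusted permutation p of 0.0126 and 0.0113). The GADD45B rows ENSDARG00000013576 and ENSDARG00000027744 had r = 0.454 and did not pass (adjusted permutation p = 0.057). FOS and fosaa had r = 0.356 (adjusted permutation p = 0.284), with 0.615 in 3 year fish, 0.489 in 1 year fish at 37.5 nM and -0.854 at 3.75 nM. In that last group replicates 3, 4 and 5, first-run fish with high tissue scores, were highest in FOS and lowest in fosaa. Its 5 second-run fish spanned only 11.7 to 13.6 CPM for FOS and 7.39 to 8.18 CPM for fosaa. fosaa was also higher in the second run (log2 fold change 0.64). Reads that fit both copies of a pair could have been split or dropped by the counting, and the library kit does not mark strand, so reads of a gene and of an overlapping antisense transcript cannot be told apart.

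The runs of fish numbers were compared with the group as a term, a comparison added after the data were seen. Between the second and the first run 22.2% of 20452 genes were called by edgeR, 12.2% higher, and 7 of 33 members were higher in the second run and 0 lower. KLF9 had 6.48, 106.2 and 140.02 CPM (lowest, median, highest) in the second run, against 9.95, 43.6 and 66.4 CPM in the first. Of the 14 fish of the second run, 10 lay above every fish of the first, and the lowest fish of the series was also in the second. Its log2 fold change was 1.201 ± 0.327 (SE, edgeR adjusted p = 0.0109). DUSP2 had 4.41, 27.3 and 61.3 CPM in the second run, against 6.28, 13.9 and 22.3 CPM in the first, with a log2 fold change of 1.05 ± 0.26 (SE, edgeR adjusted p = 0.0061). The others were FOSB at 0.84 ± 0.25, fosaa at 0.64 ± 0.17, KLF4 at 0.54 ± 0.19, klf2b at 0.44 ± 0.12 and klf2a at 0.38 ± 0.12, with edgeR adjusted p between 0.00775 and 0.0402. FOS and the 7 members called on it were not among them. Of the other lists, 11 of 19 heat shock genes and 13 of 23 muscle genes were lower in the second run, and 15 of 33 clock genes were higher. Without the 10 libraries with high tissue scores 0 members were called in edgeR, with 9 at an unadjusted p under 0.05.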

How the data were processed

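Brain RNA of 26 zebrafish was sequenced after TruSeq RNA v2 library preparation, per the labels' protocols. The authors deposited raw read counts per gene in 2 tables, and these counts were used as deposited. The submitters' processing notes name CASAVA 1.8.2, STAR 2.4.1d, featureCounts 1.4.6-p4 and the build GRCz10, while the sources used here do not give the annotation or how strand and multi-mapping reads were handled. The deposited RPKM tables were not used. No column was without a sample (0), and 26269 of 32105 genes (81.8%) had a symbol.

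Samples were grouped by the labels for age and rotenone. The members and gene lists were chosen with earlier results of these data known. Genes were filtered by edgeR's filterByExpr, scaled by TMM and tested with edgeR 4.0.16's quasi-likelihood test with Benjamini-Hochberg adjustment over all genes tested, with a threshold of 0.05, in R 4.3.3. Slopes were fitted on log2 CPM of the anchor gene, with a prior count of 2. Pearson's r and Spearman's rho were tested with 100000 permutations within groups in Python 3.11.15 with NumPy 2.4.6 and pandas 2.3.3, and figures were drawn with matplotlib 3.10.9. Alternatives used DESeq2 1.42.0, limma 3.58.1, other filters and size factors, runs, groups alone, other anchors and each library left out in turn. The age and slope fits were also run on simulated counts with the same spread for all genes and no run or tissue differences. That check does not cover these features of the data.

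Genes outside the members were named by rule: in a slope fit, the 10 positive and 5 negative genes of smallest p among those called, leaving out clone names and genes with a mean log2 CPM under 1, and up to 3 genes of a list. The rule was written for FOS and also applied to KLF9. For the glucocorticoid list on KLF9 it was not kept, and more genes were named. HSD11B2, among the 3 of smallest p in that list, was not named there (slope 0.45 ± 0.06 (SE), edgeR adjusted p = 4.17e-05). The 16 lists held 359 symbols, of which 332 were matched to rows. A search for promoter motifs was not run. A further gene result is not reported here. For age, genes called higher and lower in the lists not given with the results were 0 and 1 of 16 glucocorticoid, 2 and 0 of 19 heat shock, 1 and 1 of 19 hypoxia, 1 and 2 of 33 clock, 0 and 2 of 23 endothelium, 14 and 0 of 23 microglia, 0 and 3 of 23 neuron, 0 and 1 of 23 muscle, 0 and 2 of 8 pituitary and 1 and 0 of 16 skin genes, and 0 in the blood, pericyte, glia and eye and pineal lists. For dose, 3 clock genes were higher and 1 lower of 33, and 0 were called in the other lists.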

Additional observations from a re-analysis of the deposited data

Results flagged for a closer look

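Within the groups of 7, 9 and 10 fish, the highest or lowest level of a member was set against its gap to the next fish, over 99 sets of a gene and a group. Chance gives about 1 such set in 20, and 5 were found. NPAS4 (ENSDARG00000055752) reached 487 CPM in 1 year 37.5 nM replicate 4, with the next fish of that group at 246 CPM. That fish had a high tissue score and was among the 5 highest for all 8 genes of the FOS block. KLF9 was 6.48 CPM in 1 year 3.75 nM replicate 6, with the next fish at 34.4 CPM, and this fish was also the lowest of its group for FKBP5. NR4A3 was 9.02 CPM in 3 year replicate 1, with the next fish at 15.1 CPM. EGR2 was 2.68 CPM in 1 year 3.75 nM replicate 2, with the next fish at 4.16 CPM, and KLF6 was 62.9 CPM in 1 year 3.75 nM replicate 5, with the next fish at 69.6 CPM.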

How the results depend on the processing

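Among genes called in the main fits, no log2 change or slope reversed in 656 alternatives. Members that were not called and the dose values were not followed in this way. Most of these alternatives share nearly all fish, so a kept sign is a weak check. Age: with a library left out, 0 to 2 members and 942 to 2156 genes were called (942 without 3 year replicate 4 and 944 without 3 year replicate 7), 0 members and 16 genes in the first run, 0 and 436 without the libraries with high tissue scores, and 2541 genes with DESeq2. IER5L was the second member, without 1 year 37.5 nM replicate 4. In the second run 1 member was called, but it was not ATF3, whose edgeR adjusted p there was 0.0531. ATF3 ranged from 0.40 to 0.60 with a library left out. Dose: 0 members in all alternatives, with 2 to 12 genes with a library left out (2 without 1 year 37.5 nM replicate 8, and 6 without 1 year 37.5 nM replicates 2, 3, 6 and 9 or 3.75 nM replicates 3 and 4), 54 with DESeq2, 24 with the run as a covariate, and 0 in the second run and without the tissue libraries (2454 and 2657 at an unadjusted p under 0.05). Slope on FOS: members and genes called were 6 to 7 and 7 to 9 with a library left out, 0 and 0 without the tissue libraries, 1 and 1 for the first run, 0 and 0 for the second run and for each group alone. DESeq2 called 21 genes and the fit without the group term 22. In place of FOS, egr1 gave 4 members and 4 genes, NPAS4 (ENSDARG00000055752) 7 members, NPAS4 (ENSDARG00000087753) 1, JUNB (ENSDARG00000104773) 8 and JUNB (ENSDARG00000074378) 0 members and 38 genes. Slope on KLF9: 2 to 4 members and 410 to 600 genes with a library left out, 2 and 325 with the run as a covariate, 0 and 12 in the first run, 233 genes in the second, 283 without the tissue libraries, 0 and 3 in 3 year fish, 0 and 52 in 1 year fish at 37.5 nM, 2 and 98 at 3.75 nM, and 1930 genes without the 3 fish lowest in KLF9. Run: 0 members and 832 genes without the tissue libraries. Pairs: 89 to 116 called with a library left out, 67 with group and run means removed and 9 without the tissue libraries. Subsets hold fewer fish; beyond that the cause of each change was not tested. The alternatives on KLF9 and on the members' spread, the comparison of runs, and the use of both rows each of NPAS4 and JUNB as anchors were chosen after seeing the data. No paired analysis was possible because the replicate numbers only follow the order of deposit.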
